A study of Mus musculus with 8 samples.

Results

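Heat shock proteins and their partners are molecular chaperones, proteins that bind unfolded chains and help them fold, move between compartments or be degraded. HSP70 proteins bind and release such chains in a cycle driven by ATP. J-domain proteins, encoded by the DNAJ genes, bring clients to HSP70 and start ATP hydrolysis, and nucleotide exchange factors such as some BAG proteins reopen it. HSP90 acts later on a selected set of clients, and the HSP60 and HSP10 pair forms a folding chamber in mitochondria. Some genes of the family are switched on by heat through the transcription factor HSF1, others are always on, and others serve the endoplasmic reticulum (ER) or the mitochondria. In the mouse, the heat-inducible HSP70 genes are known to be among the early transcripts of the embryonic genome, and HSF1 is known as a factor stored in the oocyte.

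The genes described here are the protein-coding genes whose mouse symbols begin with Hspa, Hspb, Hspd, Hspe, Hsph or Hsp90, or with Dnaja, Dnajb or Dnajc and a number, together with Hsf1, Hsf2 and Bag1 to Bag6, without pseudogenes. Of 82 such genes in the reference annotation, 81 were among the 37310 genes of the table. Hspa14 was not analysed here. The prefix also takes Hspbp1 and Hspbap1, which are not small heat shock proteins. The libraries were polyadenylated RNA of mouse 2-cell embryos grown from fertilized eggs in G1 medium. In 4 control libraries the medium held DMSO, the solvent. In 4 treated libraries it held 6 µM triclocarban, an antibacterial compound of personal care products. The labels name neither the mouse strain nor the hour of collection, nor do they tell whether replicates were separate cultures. The p-values therefore refer to the scatter among the 8 libraries only, and that scatter may be technical. The cDNA was amplified before the libraries were built.

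Values were FPKM, fragments scaled by transcript length and by the mapped total, with sums of 477882 to 605986 per library. Controls 1 and 2 lay apart from controls 3 and 4 on the first principal component of all tested genes, and triclocarban library 2 stood apart on the second. Genes with at least 1 FPKM numbered 12828 to 13541 in controls and 11788 to 11957 in treated libraries, and mitochondrially encoded genes made up 16.6 to 24.3% and 11.1 to 17.6% of the FPKM. All 10 measured markers of oocytes and 2-cell embryos had at least 1 FPKM in each library. Their summed level was 1757 to 4673 FPKM in controls and 4869 to 7901 with triclocarban, and they went both ways. Ooep, Btg4, Nlrp5 and Bmp15 were higher, by 2.88, 1.52, 1.29 and 1.26 on the log2 scale, and Obox3, Zp3 and Zfp352 had log2 differences of -2.02, -1.14 and -1.14. The part of these shifts in the chaperone results was not tested. Of 8 cumulus cell markers, Amh, Inha and Lhcgr were at 0 in each library and Has2 and Ptx3 below 1 FPKM. The summed level of that list was 4.65 to 8.95 FPKM in controls and 9.02 to 17.6 with triclocarban. Within it Cyp19a1 and Fshr were higher and Tnfaip6 lower, and the part of these cells in the results was not tested. The summed level of 6 sperm markers was 1.12 to 5.9 FPKM in controls and 7.23 to 10.4 in treated libraries, mostly Prm2, which was itself higher (log2 difference 1.57, adjusted p = 0.00307 by limma). The part of sperm RNA in the results was not tested. The sums of 6 blastocyst markers overlapped, at 4.45 to 23.2 and 6.31 to 14.7 FPKM, with Nanog at 5.46 FPKM in triclocarban library 2 and at most 0.605 elsewhere. Since these are bulk samples, fewer cells of a type and less RNA per cell cannot be told apart.

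At least 1 FPKM in at least 4 libraries was found for 65 of the 81 chaperone genes, and these were tested. With triclocarban, 7 were higher and 22 lower, and 36 did not pass the threshold (limma on log2(FPKM + 1), Benjamini-Hochberg adjusted p under 0.05 over all 12941 genes tested). That is 10.8% higher and 33.8% lower, where 11.3% of all tested genes were higher and 30.8% lower, so the share of chaperone genes that changed was near that of the transcriptome. The median log2 difference of the 65 was -0.22, and that of all tested genes -0.19. With median-of-ratios scaling, which moved the median of all genes to 0.06, 17 members were higher and 21 lower, against 20.4% and 24.6% of all genes. With quantile normalization, which moved it to 0.14, 14 were higher and 17 lower, against 22.5% and 22.0%. No treated library overlapped a control for 8 members that were above and 21 that were below, where 10.2% and 30.0% of all tested genes did so. Falls of more than 2 on the log2 scale were found for Hspb1, Hspa1a and Bag3 of the inducible class, Dnajb9 and Dnajb14 of the ER, the exchange factors Bag5, Bag1 and Hspbp1, and Dnajc12. Of these, Hspbp1 passed the filter through the controls alone, and Hspa1a through the controls and triclocarban library 2. The rises were led by Dnajb4 of the cytosol and Dnajc11 and Hspe1 of mitochondria.

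**Figure D1:**
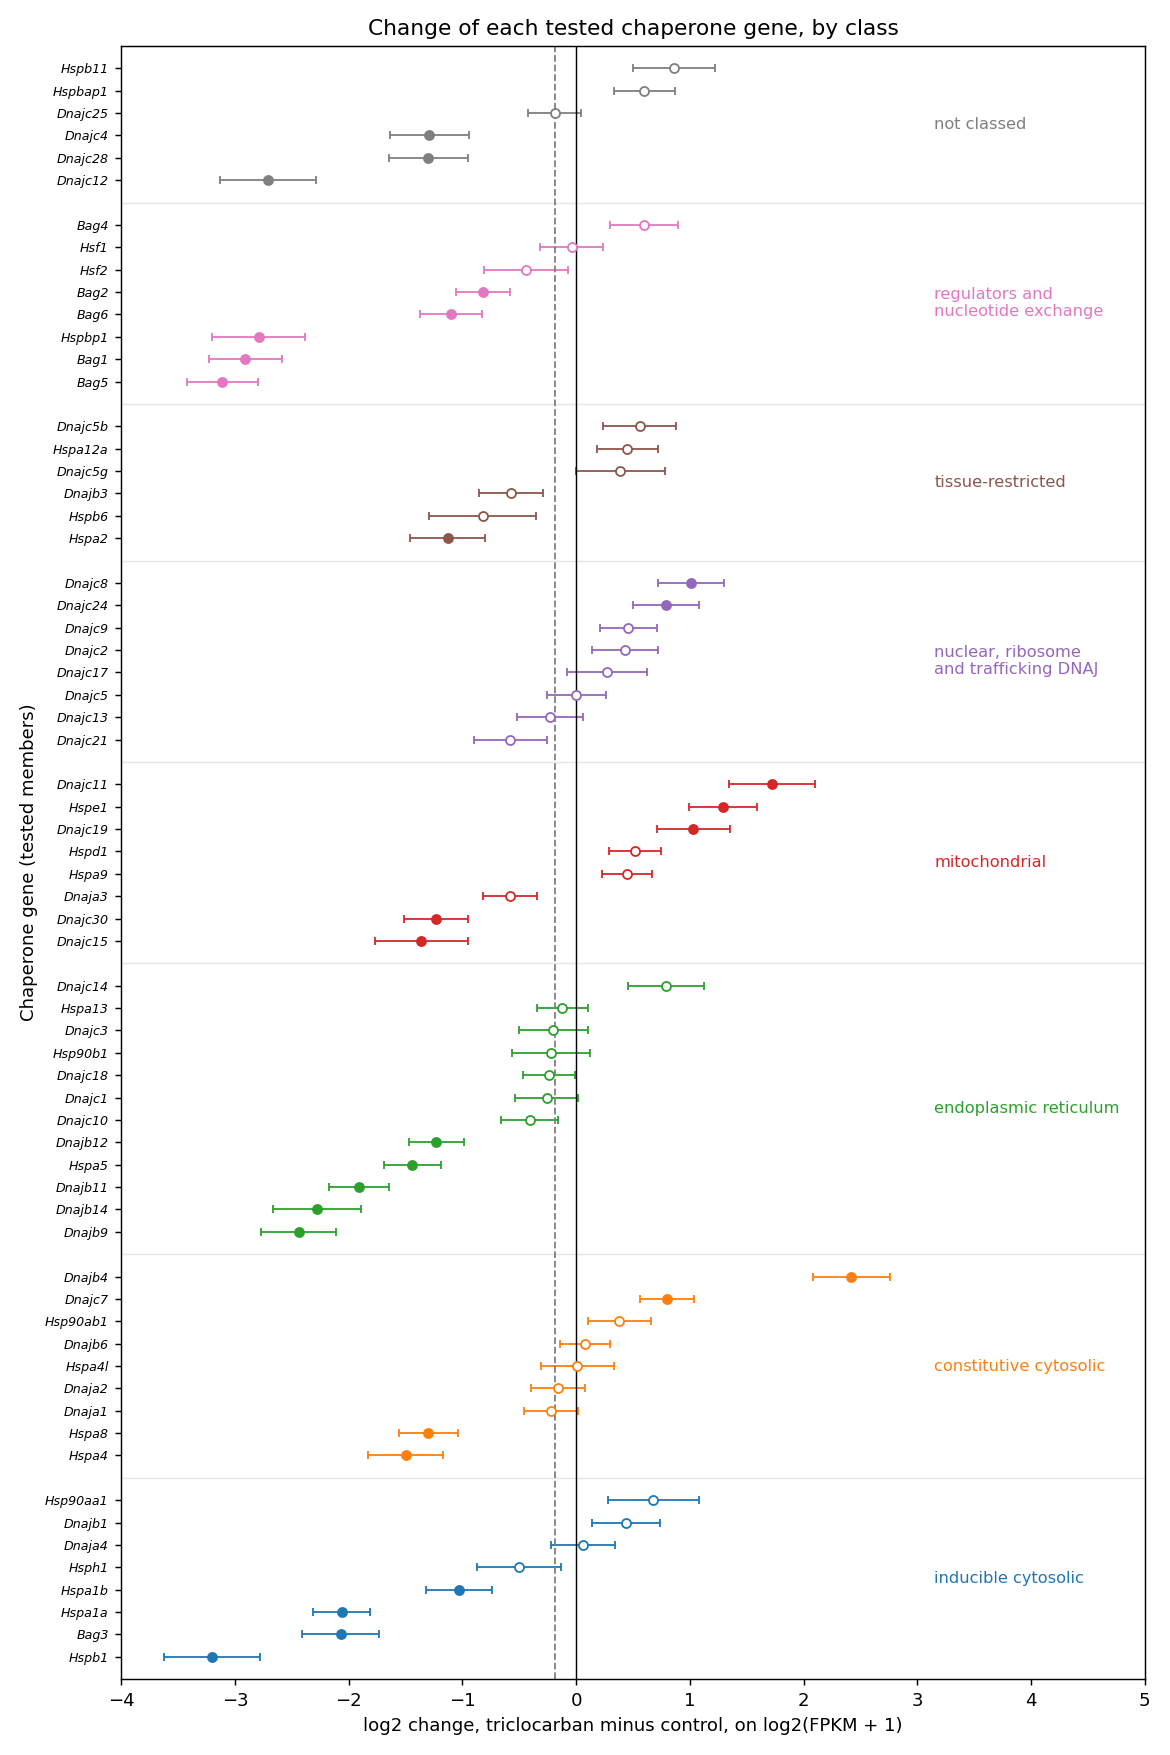
Each point is the log2 difference of 1 of the 65 tested chaperone genes (triclocarban minus control, on log2(FPKM + 1), 4 libraries each), with its standard error, grouped by class. Filled points passed the limma threshold, and the dashed line marks the median of all tested genes at -0.19. Falls of more than 2 lie among inducible, ER, BAG and regulator genes and Dnajc12, and the only rise of more than 2 is Dnajb4.

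Among 8 tested members of the cytosol classed as inducible, 4 were lower and 0 higher. Their median log2 difference was -0.77, or -0.58 relative to all genes. These counts depend on the classes drawn, since Dnajb4, which was higher, was placed among the constitutive members. Of all tested genes, 30.8% were lower and 11.3% higher. Whether this or any other class differed from those shares was not tested. The same fit gave 1 higher member, Dnajb1, with median-of-ratios scaling. Hspa1a encodes the major heat-inducible HSP70 (ENSMUSG00000091971.1, chromosome 17, 34969190 to 34972156, minus strand, GRCm38). In controls 1 to 4 it stood at 4.09, 6.15, 5.07 and 5.63 FPKM, against 0.311, 1.15, 0.258 and 0.359 in treated libraries 1 to 4, the library order used throughout. Each treated library was below each control, and treated library 2 was the highest of its group. The mean went from 5.23 ± 0.883 to 0.52 ± 0.424 FPKM (SD, n = 4 each), and the log2 difference was -2.06 (standard error 0.25, adjusted p = 0.000126 by limma). Its neighbour and near copy Hspa1b (chromosome 17, 34956436 to 34959238, minus strand) was at 1.57, 3.04, 2.39 and 2.36 FPKM in controls and 0.2, 1.73, 0.225 and 0.678 in treated libraries. Here treated library 2 reached above control 1, so the groups overlapped, and the log2 difference was -1.03 (adjusted p = 0.0132 by limma). The call of Hspa1b was lost with quantile normalization, without the filter and without controls 3 and 4. Of all stretches of 150 bases, the read length, 38.1% of those in the Hspa1a transcript also occur in Hspa1b. How such reads were counted is not stated, so the split between both genes is uncertain. Their summed FPKM was 5.65, 9.19, 7.46 and 7.99 in controls and 0.511, 2.88, 0.483 and 1.04 in treated libraries, and the ranges did not overlap. The sum is free of how shared reads were divided between both genes, though not of whether they were discarded. Hspa1a also shares 564 exon bases with the opposite-strand gene Gm20481.

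The small heat shock protein gene Hspb1 (HSP25, an ATP-independent holder of unfolded chains, chromosome 5, 135887919 to 135889563, plus strand) was far more abundant than either and also lower. It was at 61.1, 79.3, 116 and 56.3 FPKM in controls, and only 8.98, 2.33, 11 and 10.8 FPKM remained in the treated libraries. The groups lay far apart, with treated library 2 lowest. The log2 difference was -3.2 with a standard error of 0.42 (adjusted p = 0.000187 by limma), and the mean went from 78.3 ± 27.3 to 8.29 ± 4.08 FPKM (SD, n = 4 each). Bag3, an HSF1 target that couples HSP70 and small heat shock proteins to autophagy, was at 15.4, 14.6, 10.2 and 10.7 FPKM in controls and 0.973, 4.87, 2.01 and 2.07 with triclocarban. Again treated library 2 was the highest of its group but below every control (log2 difference -2.07, adjusted p = 0.000609 by limma).

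The other 4 tested inducible genes did not pass the threshold. Hsp90aa1, the stress-responsive HSP90, had the highest level of the class, at 102, 284, 152 and 349 FPKM in controls and 256, 283, 506 and 280 in treated libraries. Its controls were widely spread and the groups overlapped (log2 difference 0.68, standard error 0.4, adjusted p = 0.193 by limma). Dnajb1 (HSP40), the J-domain partner of inducible HSP70, was at 48.3, 53.2, 37 and 32.7 FPKM in controls and 69.6, 33.9, 75.5 and 61.2 with triclocarban. Treated library 2 lay within the controls and the other treated libraries above them. Over all 8 libraries Dnajb1 did not pass the threshold (log2 difference 0.44, adjusted p = 0.265 by limma). It passed without treated library 2, with estimated library weights and with median-of-ratios or upper-quartile scaling. Hsph1 (HSP105), an HSP110 exchange factor, was at 12.9, 6.44, 28.5 and 14.7 FPKM in controls and 8.58, 11.4, 8.94 and 8.99 with triclocarban (log2 difference -0.50, adjusted p = 0.302 by limma). Its treated libraries lay within the range of the controls. The value of Hsph1 depended on the controls used: it was -1.05 without controls 1 and 2, where it passed (adjusted p = 0.0195 by limma), 0.04 without controls 3 and 4, and -0.83 and -0.17 without control 2 and without control 3. Dnaja4 had a log2 difference of 0.06 (adjusted p = 0.88 by limma), and Hspb8 was below the filter.

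HSF1 binds inverted repeats of the unit NGAAN. Promoters of 65 members were found in RefSeq (GRCm38.p6), and the 250 bases before each start were searched on both strands. A pair of units (GAANNTTC or TTCNNGAA) stood in 14 of 65 members with a promoter, 21.5%, and in 14.5% of all 27025 genes. In the inducible class 5 of 8 had one. A run of 3 units (GAA, TTC and GAA, or TTC, GAA and TTC, each 2 bases apart, which contains the pairs) was found in 0.514% of genes and in 3 members, Dnajb6, Hspd1 and Hspe1. The stretches below show the pairs of 3 inducible genes that fell and the longer element of the mitochondrial pair, with the matched units in capitals. The stretch is the same in both inducible HSP70 genes, and that of Hspe1 overlaps an annotated exon.
Hspa1a (chr17:34972243-34972270, minus strand): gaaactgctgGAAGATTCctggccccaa
Hspa1b (chr17:34959325-34959352, minus strand): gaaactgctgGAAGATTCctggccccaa
Hspb1 (chr5:135887792-135887839, plus strand): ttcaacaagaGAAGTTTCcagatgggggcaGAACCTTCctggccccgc
Hspe1 (chr1:55088054-55088081, plus strand): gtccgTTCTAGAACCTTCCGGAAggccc
A match is only a description of the letters. Genes with a pair or a longer element were found on both sides: Hspb1, Hspa1a and Hspa1b were lower, and Hspe1 and Dnajb4 were higher. Dnaja1, Dnaja4, Dnajb6, Dnajc10, Hspb6, Hspd1 and Hsph1 did not pass the threshold, and Dnajc27 and Hspb3 were not tested. Of all tested genes, 30.8% were lower and 11.3% higher.

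The transcript of HSF1 itself did not pass the threshold. Hsf1 (chromosome 15, 76477422 to 76501913, plus strand) was at 42.1, 30.6, 18.6 and 30.9 FPKM in controls and 22.7, 33.3, 28.4 and 30.7 in treated libraries. The treated values lay within the range of the controls (log2 difference -0.04, standard error 0.28, adjusted p = 0.921 by limma), and the sign of this value depended on the scaling. Hsf2, a related factor of germ cells and embryos, was at 2.53, 3.79, 0.865 and 5.52 FPKM in controls and 2.38, 1.63, 1.01 and 2.36 with triclocarban (log2 difference -0.44, adjusted p = 0.358 by limma), and its groups overlapped too.

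The 9 tested members of the cytosol classed as constitutive had a median log2 difference of 0.01, or 0.2 relative to all genes. Of 9 members of this class with a promoter, 3 carry a pair of HSF1 units, Dnajb4 among them. Whether they respond to heat in these embryos was not tested, so the line between the classes is that of the listing. Among the 9 tested members 2 were lower and 2 higher, against 30.8% and 11.3% of all tested genes. Hspa8 (HSC70, the HSP70 present in all cells, chromosome 9, 40800984 to 40810087, plus strand) was at 70.6, 60.1, 108 and 84.5 FPKM in controls and 36.1, 26.8, 35.2 and 28.7 in treated libraries. Its groups did not overlap, and the mean was 80.8 ± 20.6 and 31.7 ± 4.63 FPKM (SD, n = 4 each; log2 difference -1.3, adjusted p = 0.00203 by limma). Hspa8 holds small nucleolar RNA genes (Snord14c, Snord14d and Snord14e) that share 86 to 90 of its annotated exon bases each. The HSP110-type exchange factor Hspa4 changed by -1.5, from 12.7 ± 5.75 to 3.53 ± 0.554 FPKM. By contrast the constitutive HSP90 gene Hsp90ab1 was at 117, 158, 224 and 194 FPKM in controls and 191, 302, 202 and 196 with triclocarban (log2 difference 0.38, adjusted p = 0.307 by limma), with overlap. The abundant J-domain genes Dnaja1, Dnaja2 and Dnajb6 had log2 differences of -0.22, -0.16 and 0.08, with standard errors of 0.24, 0.24 and 0.22. None passed the threshold, at means of 126 ± 25.7, 218 ± 39.5 and 165 ± 20 FPKM in controls.

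Dnajb4, a cytosolic J-domain gene of the same branch as Dnajb1, had the largest rise of the family (chromosome 3, 152178511 to 152210302, minus strand). It was at 21.5, 14.7, 11.7 and 25.4 FPKM in controls and at 86.4, 171, 72.4 and 87 in treated libraries. Every treated library was well above every control, with treated library 2 highest. The mean went from 18.3 ± 6.26 to 104 ± 44.8 FPKM (SD, n = 4 each), and the log2 difference was 2.42 (standard error 0.34, adjusted p = 0.000251 by limma). Dnajc7, a co-chaperone that binds both HSP70 and HSP90, was also higher, with 41.6 ± 5.24 and 73.4 ± 13.4 FPKM (log2 difference 0.80, adjusted p = 0.0201 by limma). It shares 287 exon bases with Nkiras2 on the opposite strand, and lost the call without control 4 or without treated library 1, 3 or 4.

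**Figure D2:**
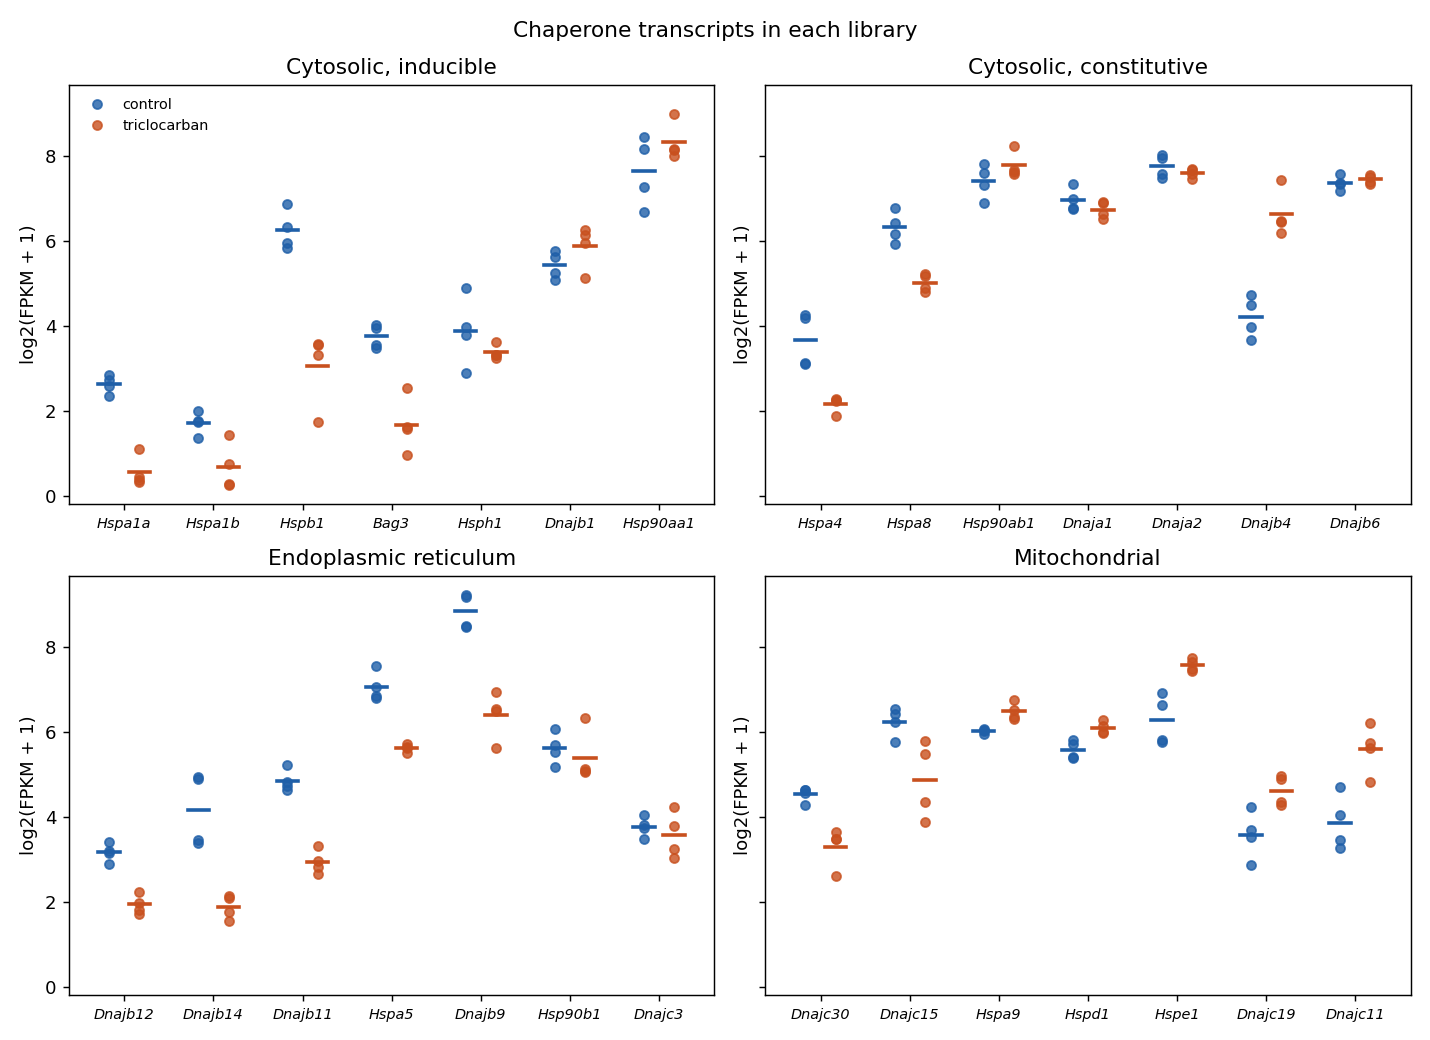
Points are single libraries (4 controls, 4 treated with triclocarban) and bars the group means, on log2(FPKM + 1), for 28 chaperone genes of 4 classes. Hspa1a, Hspb1, Bag3, Hspa8, Hspa5 and the lower ER genes show groups that do not overlap, as do Dnajb4, Hspe1 and Dnajc11 in the other direction, while Dnaja1, Dnaja2, Dnajb6 and Hsp90b1 overlap.

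Of 12 tested ER members, 5 were lower and 0 higher, against 30.8% and 11.3% of all tested genes. The median log2 difference of the class was -0.33, or -0.14 relative to all genes. The counts of lower members were the same with median-of-ratios and quantile scaling, and each of those scalings also gave 1 higher member, Dnajc14. Hspa5 (BiP, the HSP70 of the ER, chromosome 2, 34771970 to 34777547, plus strand) was at 114, 110, 185 and 132 FPKM in controls and 44.2, 51.4, 48.5 and 48 with triclocarban. The treated libraries were close to each other and all below the controls. The mean went from 135 ± 34.5 to 48 ± 2.96 FPKM (SD, n = 4 each), and the log2 difference was -1.44 (standard error 0.25, adjusted p = 0.000802 by limma). Dnajb9 (ERdj4), a BiP partner that is itself known as a target of the unfolded protein response, was the most abundant chaperone transcript of the control embryos (chromosome 12, 44205559 to 44210326, minus strand). It was at 356, 350, 576 and 595 FPKM in controls, rank 110 of all tested genes by mean, and at 92.4, 47.7, 121 and 88.1 in treated libraries. Its log2 difference was -2.44 (adjusted p = 0.000215 by limma), -2.08 without controls 3 and 4 and -2.81 without controls 1 and 2.

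The other lower ER genes all encode J-domain proteins. Dnajb11 (ERdj3), a soluble BiP partner that binds unfolded chains, averaged 28.1 ± 5.54 FPKM in control and 6.77 ± 1.58 FPKM in treated embryos (SD over 4 libraries), which is -1.91 on the log2 scale. The membrane-anchored pair Dnajb12 and Dnajb14, whose J-domains face the cytosol, changed by -1.23 and -2.28. Dnajb14 was at 9.37, 10, 28.5 and 29.6 FPKM in controls and 1.92, 3.25, 3.37 and 2.4 in treated libraries, so its controls fell into the pairs named above. Its difference was -1.54 against controls 1 and 2 alone and -3.03 against controls 3 and 4 alone.

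ER members that did not pass the threshold included Hsp90b1 (GRP94, the HSP90 of the ER), at 50.5, 66.3, 45.2 and 34.8 FPKM in controls and 33.8, 79.2, 32 and 32.7 with triclocarban. Treated library 2 was the highest of all 8 and the other treated libraries lay below all controls (log2 difference -0.22, adjusted p = 0.629 by limma). Hsp90b1 shares 415 exon bases with an opposite-strand gene. The log2 difference was -0.20 for Dnajc3 (P58IPK), -0.41 for Dnajc10 (ERdj5, a reductase), -0.26 for Dnajc1, -0.24 for Dnajc18 and -0.12 for Hspa13, none past the threshold. Dnajc14, a membrane protein linked to receptor export, had 20.5 ± 4.48 and 38 ± 15.4 FPKM (log2 difference 0.79, adjusted p = 0.0793 by limma) and shares 1114 exon bases with Ormdl2 on the opposite strand. Summed over the class, ER chaperone transcripts were at 615, 627, 922 and 870 FPKM in controls and 241, 241, 284 and 250 with triclocarban. Without Dnajb9 the sums were 259 to 346 and 149 to 194 FPKM, still without overlap.

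The ER stress response element, CCAAT followed after 9 bases of any kind by CCACG, is bound by factors of the unfolded protein response. It was searched on both strands and occurred before a RefSeq start in 0.13% of 27025 genes and in 3 members, all of the ER class. The shorter element II (ATTGG and CCACG, 1 base apart, 0.037% of genes) was in none of the members. The 3 genes are shown because they carry the same element, in capitals. The Hspa5 stretch lies after the gene start of the other annotation (34771970) and overlaps an annotated exon.
Hspa5 (chr2:34772020-34772048, plus strand): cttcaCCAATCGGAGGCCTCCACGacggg
Dnajc3 (chr14:118937817-118937855, plus strand): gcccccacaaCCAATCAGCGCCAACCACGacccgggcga
Hsp90b1 (chr10:86705523-86705666, minus strand): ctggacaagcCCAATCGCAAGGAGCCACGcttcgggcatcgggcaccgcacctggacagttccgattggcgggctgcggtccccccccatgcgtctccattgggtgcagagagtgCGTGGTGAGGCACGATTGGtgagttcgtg
Hspa5 passed the threshold at -1.44, while Dnajc3 and Hsp90b1 had log2 differences of -0.20 and -0.22 with standard errors of 0.30 and 0.34. That of Hsp90b1 rested on treated library 2, being -0.53 without it (adjusted p = 0.102 by limma) and -0.56 with library weights. Dnajb9 and Dnajb11, both lower, had no perfect match in this window, which says nothing of the factors that bind there.

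The 8 members classed as mitochondrial had the highest median of the classes, 0.48, or 0.68 relative to all genes. Among them 3 were higher and 2 lower. Of 7 members placed in no class 3 were lower, Dnajc4, Dnajc28 and Dnajc12, and their compartment was not assessed. Counting Dnajc4 and Dnajc28 (-1.29 and -1.30) as mitochondrial would lower the median, so its rank depends on how the classes were drawn. Of all tested genes, 11.3% were higher and 30.8% lower. For 5 of the 8 the lowest treated library exceeded the highest control, and for 2 the reverse held. Over all tested genes these shares were 10.2% and 30.0%. With median-of-ratios scaling 5 members were higher and 1 lower, against 20.4% and 24.6% of all genes. Quantile normalization gave 4 higher and 2 lower, against 22.5% and 22.0%. Hspe1 (HSP10, the lid of the mitochondrial folding chamber, chromosome 1, 55088132 to 55091307, plus strand) was at 98.1, 120, 54.6 and 53.5 FPKM in controls and 178, 172, 199 and 210 in treated libraries. Its mean went from 81.5 ± 32.8 to 189 ± 17.7 FPKM (SD, n = 4 each), and the log2 difference was 1.29 (standard error 0.30, adjusted p = 0.00526 by limma). The difference shrank to 0.80 when controls 3 and 4 were left out and grew to 1.79 when controls 1 and 2 were. Hspd1 (HSP60, the chamber itself) starts beside it on the other strand, and the exons of both share 112 bases. Hspd1 was at 51, 55.2, 40.9 and 41.5 FPKM in controls and 77, 62.7, 61.7 and 69.2 with triclocarban. Each treated library was above each control, but the adjusted p was 0.0917 (limma, log2 difference 0.52). Hspa9 (mortalin, the HSP70 of the mitochondrial matrix) was at 66.4, 60.8, 64 and 65 FPKM in controls and 90.4, 107, 80 and 77.3 in treated libraries. It also had no overlap and missed the threshold (log2 difference 0.45, adjusted p = 0.128 by limma). With median-of-ratios scaling both passed, at 0.82 for Hspd1 (adjusted p = 0.00976 by limma) and 0.75 for Hspa9 (adjusted p = 0.0208 by limma). With quantile normalization Hspd1 passed at 0.69 (adjusted p = 0.0309 by limma) and Hspa9 did not, at 0.58 (adjusted p = 0.0619 by limma). Hspd1 was at 0.34 without controls 3 and 4 (adjusted p = 0.307 by limma). It passed at 0.7 without controls 1 and 2 (adjusted p = 0.0257 by limma).

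J-domain genes of mitochondria went both ways. Dnajc11, linked to the organisation of the inner membrane, was at 25.1, 15.5, 9.9 and 8.61 FPKM in controls and 72.2, 27.1, 52 and 48 with triclocarban. Its groups came close, with treated library 2 just above control 1, and the log2 difference was 1.72 (adjusted p = 0.00371 by limma). Dnajc19, a subunit of the protein import motor, was at 12, 17.9, 6.3 and 10.5 FPKM in controls and 18.3, 19.5, 30 and 28.4 in treated libraries (log2 difference 1.03, adjusted p = 0.0231 by limma), with a gap of less than 1 FPKM between control 2 and treated library 1. It shares 178 exon bases with Fxr1 on the other strand and was not called without control 3, control 4, treated library 3 or treated library 4. The related import gene Dnajc15 went the other way, from 75.8 ± 16.9 to 32.7 ± 19.3 FPKM (SD, n = 4 each), with overlapping groups and a log2 difference of -1.36 (adjusted p = 0.0196 by limma). It was not called without control 4, treated library 3 or treated library 4, nor with median-of-ratios scaling. Dnajc30, which shares 436 exon bases with Bud23 on the other strand, changed by -1.23. Dnaja3 (TID1, the partner of HSPA9) had 21 ± 1.14 and 14 ± 2.99 FPKM. All its treated libraries were below the controls, and it missed the threshold (log2 difference -0.58, adjusted p = 0.0794 by limma).

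The makeup of the HSP70 family differed between the groups. Of the FPKM summed over its 12 measured genes, Hspa9 took 21.8, 21.4, 15.9 and 19.8% in controls and 46.8, 48.5, 43.3 and 44.3% with triclocarban. Hspa5 took 37.5, 38.6, 45.9 and 40.3% in controls and 22.9, 23.4, 26.2 and 27.5% in treated libraries, and Hspa8 21.2 to 26.8% and 12.2 to 19%. The ER gene led in controls and the mitochondrial gene in treated libraries. The family's sum was 304, 284, 403 and 328 FPKM in controls and 193, 220, 185 and 175 with triclocarban.

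**Figure D3:**
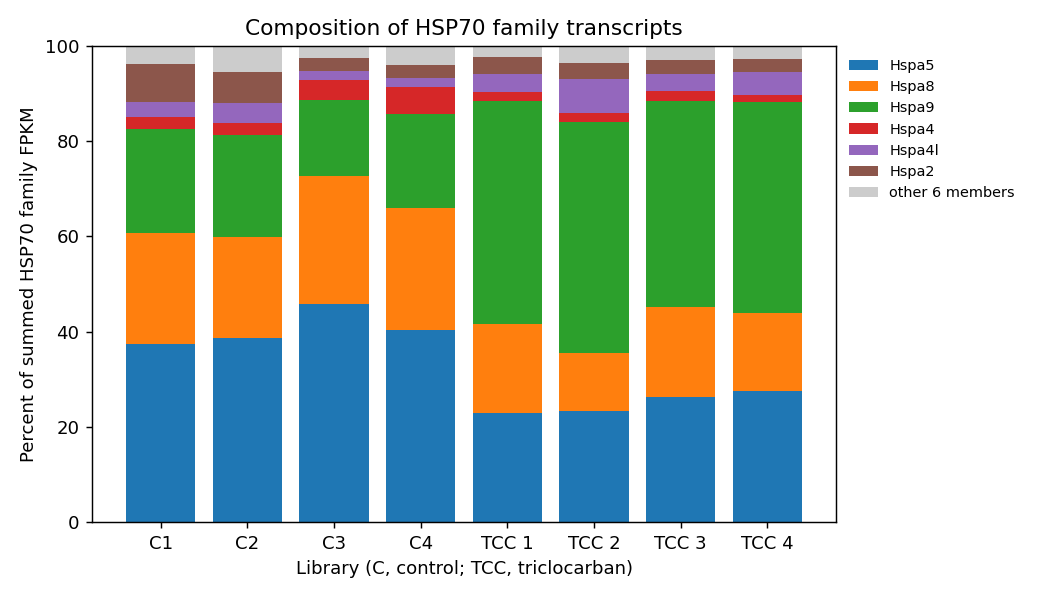
Stacked bars give the percentage of the summed HSP70 family FPKM taken by 6 genes and by the other 6 members together in each library. Hspa9 takes 15.9 to 21.8% in the controls and 43.3 to 48.5% with triclocarban, and Hspa5 takes 37.5 to 45.9% and 22.9 to 27.5%.

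Ratios of 2 chaperones were taken within each library, on FPKM + 1, and 6 pairs were compared by permuting the library labels exactly (two-sided, 70 assignments). The log2 ratio of Hspa9 to Hspa8, mitochondrial to cytosolic HSP70, was -0.09, 0.02, -0.74 and -0.37 in controls and 1.3, 1.95, 1.16 and 1.4 in treated libraries. The difference was 1.75 (exact permutation p = 0.0286, the smallest possible, 0.0857 adjusted over 6 pairs). Hspd1 to Hspe1 went from -0.70 ± 0.37 to -1.47 ± 0.21 (SD, n = 4 each), also without overlap, and this difference of -0.77 had the same exact p of 0.0286 and adjusted value of 0.0857. For the ER to the cytosol, Hspa5 to Hspa8 was 0.74 ± 0.09 in controls and 0.59 ± 0.28 with triclocarban, a difference of -0.14 (exact permutation p = 0.4, 0.583 adjusted). The inducible against the constitutive member differed by 0.3 for Hsp90aa1 to Hsp90ab1 (exact permutation p = 0.486, 0.583 adjusted) and by 0.27 for Hspa1b to Hspa8 (exact permutation p = 0.657, also adjusted). The last value turned with the added constant, from -0.64 with 0.1 (exact permutation p = 0.457) to 0.84 with 5 (exact permutation p = 0.0286, 0.0571 adjusted), so it gives no direction. The other inducible gene, Hspa1a, had a log2 difference of -2.06 against -1.3 for Hspa8. This order also turned with the added constant, since with 5 the values were -0.89 for Hspa1a and -1.2 for Hspa8. The ratio of Hspa1a to Hspa8 was not tested, and the order gives no direction. Hsp90b1 to Hsp90ab1 differed by -0.60 (exact permutation p = 0.171, 0.343 adjusted). No pair passed 0.05 after adjustment, and with 2 pairs at the smallest p the adjusted value could not go lower than 0.0857.

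**Figure D4:**
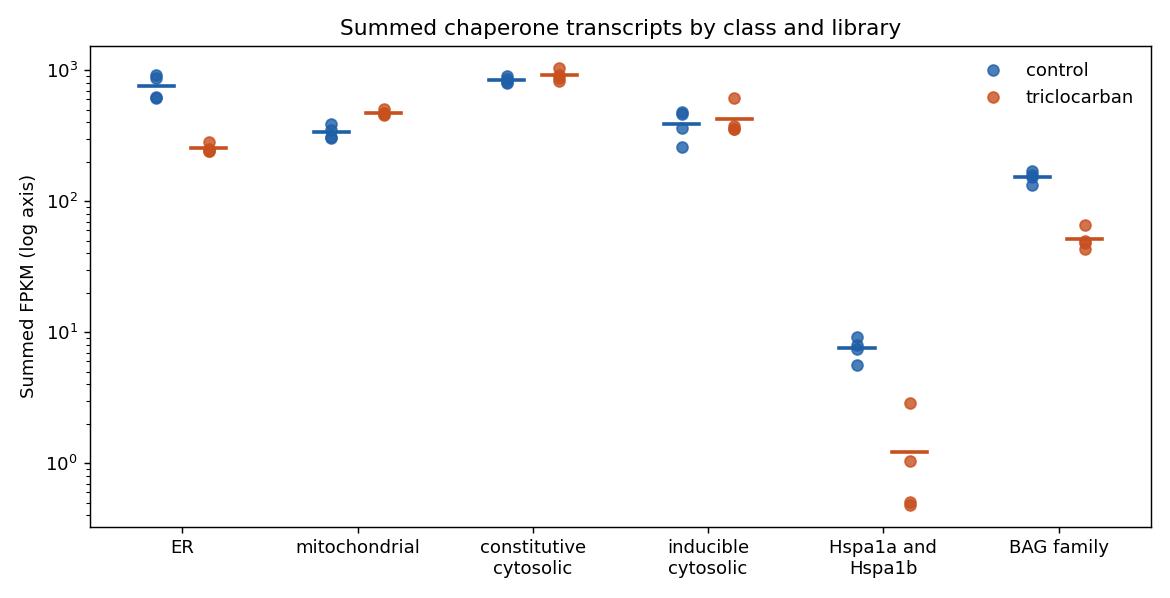
Points give the summed FPKM of a class in each library and bars the group means, on a log axis. The ER sum lies at 615 to 922 in controls and 241 to 284 with triclocarban and the BAG sum at 134 to 171 and 43.5 to 66.5, the mitochondrial sum lies at 306 to 387 and 457 to 505, and both cytosolic sums overlap.

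BAG factors other than Bag3, together with Hspbp1, Hsf1 and Hsf2, had a median log2 difference of -0.96, or -0.76 relative to all genes. Not all of this class are exchange factors of HSP70, since it also holds Hsf1, Hsf2 and Bag6. In this class 5 of 8 were lower and 0 higher, against 30.8% and 11.3% of all tested genes. Median-of-ratios and quantile scaling each gave 1 higher member, Bag4, and quantile scaling left 3 lower, without Bag2 and Bag6. Bag5, an HSP70 exchange factor with several BAG domains (chromosome 12, 111709488 to 111713257, minus strand), was at 57.8, 50.4, 41.4 and 60.4 FPKM in controls and 4.41, 7.48, 7.33 and 2.75 with triclocarban. The groups lay far apart (log2 difference -3.11, standard error 0.31, adjusted p = 5.6e-05 by limma). Bag1, which links HSP70 to the proteasome (chromosome 4, 40936398 to 40948294, minus strand), was at 37.3, 33.6, 82.8 and 72.5 FPKM in controls and 7.49, 5.52, 5.52 and 6.1 in treated libraries (log2 difference -2.91, adjusted p = 8.7e-05 by limma). Its change was -2.36 without controls 3 and 4, which held more of it. Hspbp1, an exchange factor of another fold (chromosome 7, 4660521 to 4685068, minus strand), was at 5.37, 4.1, 17.6 and 14.6 FPKM in controls and 0.678, 0, 0.594 and 0.52 with triclocarban (log2 difference -2.79, adjusted p = 0.000344 by limma). Hspbp1 and Bag2 reached 1 FPKM in control libraries only, so they entered the test through the group in which they were high. Bag6, a holder of membrane proteins awaiting the ER, changed by -1.10 and Bag2 by -0.82. Bag4 had 22.5 ± 8.51 and 33.5 ± 7.15 FPKM (SD, n = 4 each) and did not pass (log2 difference 0.60, adjusted p = 0.129 by limma).

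J-domain genes with tasks in the nucleus, at the ribosome or in membrane traffic had 2 of 8 higher and 0 lower, with a median of 0.35. Of all tested genes, 11.3% were higher and 30.8% lower. Dnajc8, a splicing-associated gene, was at 105, 193, 98.7 and 155 FPKM in controls and 308, 224, 235 and 319 with triclocarban, all above the controls (log2 difference 1.01, adjusted p = 0.0141 by limma), though not called without controls 3 and 4. Dnajc24, a gene of diphthamide synthesis, was the called member nearest to the threshold, at 1.19, 1.32, 2.83 and 1.71 FPKM in controls and 2.69, 2.42, 5.24 and 4.96 in treated libraries. Its groups overlapped (log2 difference 0.79, adjusted p = 0.0478 by limma), and leaving out control 1, 2 or 4 or treated library 1, 3 or 4 ended the call. Hspb11 (IFT25, a ciliary transport protein) was the nearest on the other side, at 3.16, 6.94, 5.72 and 3.14 FPKM in controls and 8.05, 4.75, 10.8 and 15.2 with triclocarban (log2 difference 0.86, adjusted p = 0.0761 by limma). It passed without treated library 2. The ribosome-associated Dnajc2 and Dnajc21 had log2 differences of 0.43 and -0.58, and the histone chaperone Dnajc9 of 0.46, none past the threshold.

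Outside these classes, Dnajc12, a J-domain partner of aromatic amino acid hydroxylases (chromosome 10, 63382443 to 63410576, plus strand), had one of the largest falls. It was at 9.89, 17.6, 49.1 and 28.1 FPKM in controls and 2.02, 3.56, 1.85 and 3.14 in treated libraries, with wide controls and no overlap (log2 difference -2.71, adjusted p = 0.000472 by limma). Dnajc28 changed by -1.30 and Dnajc4 by -1.29, and both lost the call without the filter. Dnajc4 also lost it with quantile normalization and without controls 3 and 4. Dnajc28 was at 7.38 FPKM in control 1, and without that library its log2 difference was -0.96, still called. Among 15 members known mainly from testis, muscle or other tissues, 6 were tested and 1 passed: the testis HSP70 gene Hspa2, with 15.6 ± 7.08 and 6.16 ± 1.27 FPKM (SD, n = 4 each, log2 difference -1.13, adjusted p = 0.0161 by limma). Of all tested genes, 42.1% passed in either direction. Leaving out treated library 4 ended the calls of Hspa2 and Bag2. So did quantile normalization, testing without the filter, and leaving out controls 1 and 2, where the log2 differences were -0.62 and -0.64. Hspa2 also lost the call with upper-quartile scaling. Of the 16 members that were not tested, Dnajb8, Hspb2 and Hspb7 were at 0 in all libraries.

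Controls 1 and 2 both lay below controls 3 and 4 for 26.2% of the 65 tested members and 30.9% of all tested genes, and above them for 36.9% and 43.3%. Among the 22 lower members they lay below for 12 and above for 3. The same count over all genes called lower was not made, so these counts do not set the chaperone genes apart. Without controls 3 and 4, 21 members were lower and 5 higher, where 25.1% and 5.37% of all genes were. Without controls 1 and 2, 21 were lower and 11 higher, where 32.6% and 21.9% of all genes were. The count of higher members thus moved in the direction of the transcriptome, while that of lower members was the same in both settings.

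Co-chaperones outside the rule were taken from a list of 34 genes, of which 31 were tested. Of these, 4 were higher and 9 lower, 18 did not pass, and the median log2 difference was -0.07. The shares higher and lower were near those of all tested genes, 11.3% and 30.8%. Fkbp4, an HSP90-binding peptidyl-prolyl isomerase, had 47.9 ± 5.39 and 4.94 ± 2.07 FPKM (SD, n = 4 each; log2 difference -3.11, adjusted p = 5.21e-05 by limma). Hsbp1l1, related to an HSF-binding protein, changed by -1.61, but it was at most 0.309 FPKM in treated libraries and entered the test through the controls alone, and the BiP-complex gene Sdf2l1 changed by -1.89. The HSP70 to HSP90 adaptor Stip1 was also lower, with 109 ± 27.4 and 38.9 ± 8.18 FPKM. Of the higher genes, Sil1, the exchange factor of BiP, had the smallest p, from 2.07 ± 0.342 to 6.01 ± 0.924 FPKM (log2 difference 1.19, adjusted p = 0.00178 by limma), and Hsf5 and Ttc4 differed by 1.31 and 0.83. The other exchange factor of BiP, Hyou1, went the other way at -0.74 (adjusted p = 0.0275 by limma). The p23 gene Ptges3, the most abundant of the list, had 298 ± 38.3 and 303 ± 17.5 FPKM and the HIP gene St13 67.6 ± 8.71 and 69.8 ± 8.46, neither past the threshold.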

How the data were processed

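Polyadenylated RNA of 2-cell embryos was sequenced in 4 control and 4 triclocarban libraries. The authors computed and deposited FPKM in a single table. The submitters' processing notes list STAR, StringTie, featureCounts, DESeq2 1.30.1 and mm10 without saying what each did. No source used here gives the annotation, whether strand was used, or how shared reads were counted; 28 members share exon bases with an opposite-strand gene. FPKM is relative to each library's total. Fragment counts could not be recovered: within a tolerance of 0.02, 4.74 to 5.78% of low values came out whole, and chance gives 4%. The depth was roughly estimated as 6900000 to 14800000 fragments.

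Identifiers were matched to GENCODE M21 (GRCm38) for symbols and 1-based coordinates (32620, 87.4%). Genes reaching 1 FPKM in 4 or more libraries were tested with limma 3.58.1 (eBayes with trend) in R 4.3.3 on log2(FPKM + 1), fitting treatment alone. This scale understates changes of low genes. The step was tested on simulated data. Other steps used scipy 1.17.1, numpy 2.4.6 and pandas 2.3.3 under Python 3.11.15. The members, classes and lists were chosen with earlier results of these data known. Values in all libraries are given for 16 core chaperones, the 5 largest rises and 8 largest falls among called members, and the members nearest to the threshold. Alternatives were pseudocounts, filters, scalings, a replicate block, library weights, other eBayes settings and left-out libraries.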

Additional observations from a re-analysis of the deposited data

Results flagged for a closer look

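In 78 groups of 4 libraries, from 39 named members, 10 values stood far from the other 3 by Dixon's test, which flags about 1 group in 20 by chance. Triclocarban library 2 gave 5 of them, all above the other treated libraries. They were Hspa1a at 1.15 FPKM, Hsph1 at 11.4, Hsp90ab1 at 302, Hsp90b1 at 79.2 and Dnajb4 at 171. Its estimated depth was the lowest of all, and the part of depth in these values was not tested. Hsp90aa1 was at 506 FPKM in triclocarban library 3, and Hspa4 at 2.7 in triclocarban library 4. Dnajc28 was at 7.38 FPKM in control 1. Bag6 stood apart in both groups, at 7.58 FPKM in control 1 and 1.95 in triclocarban library 1, the lowest of each.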

How the results depend on the processing

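All 29 called members kept their direction under the settings run on them, and 18 kept the call in each (15 lower, 3 higher). These were Hspa1a, Hspb1, Bag3, Hspa4, Hspa8, Hspa5, Dnajb9, Dnajb11, Dnajb12, Dnajb14, Dnajc12, Dnajc30, Bag1, Bag5, Hspbp1, Dnajb4, Dnajc11 and Hspe1, of which Hspbp1 passed the filter through the controls alone. Hspa1a passed it through the controls and triclocarban library 2. Neither was run with the filter of at least 5 FPKM in at least 4 libraries. The number of higher members, 7, was 17 with median-of-ratios and with upper-quartile scaling, 14 with quantile normalization, 11 with library weights and 11 without controls 1 and 2. Of all tested genes, 11.3% were higher, and 20.4, 20.2, 22.5, 16.3 and 21.9% in that order of settings. The members' number ran from 4 to 12 when single libraries were left out, with 4 without control 4, triclocarban 3 or triclocarban 4 and 12 without triclocarban 2, while 7.36 to 14.4% of all genes were higher. The number of lower members, 22, ran from 17 to 23, and was 18 without the filter, 2 of them (Dnajb13 and Dnajb7) not tested otherwise. Hsf1 had a log2 change of 0.25 with median-of-ratios scaling, 0.25 with quantile normalization, 0.29 with upper-quartile scaling, and 0.24 without controls 1 and 2. Leaving out single libraries gave -0.25 to 0.13, with 0.06 without triclocarban 1 and 0.13 without control 1. Hsp90b1 was at 0.08 with median-of-ratios scaling, 0.11 with upper-quartile scaling and 0.04 without controls 1 and 2, at -0.53 without triclocarban 2 and -0.56 with library weights, and Hsph1 at 0.04 without controls 3 and 4. The ratio of Hspa1b to Hspa8 turned to -0.64 with a pseudocount of 0.1 and ran from -0.06 (without triclocarban 2) to 0.49 when single libraries were left out. The causes were not tested.

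Same-numbered libraries deviated together with correlations of 0.338, 0.053, 0.0949 and 0.104, so the numbers were not taken as pairs. With the replicate block, 7 members were higher and 22 lower, and no call changed. In sign flips of the 4 pairs no ratio could go below an exact p of 0.125. The estimated depth is rough, and its part in values near 1 FPKM was not tested.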

Other observations

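Some chaperone genes below the filter on low values had a mean near 1 FPKM in a single group. Hspa1l, the testis HSP70 gene beside Hspa1a, was at 2.03, 2.02, 0.19 and 0.25 FPKM in controls 1 to 4 and at 0 to 0.22 in treated libraries, and it shares 1778 exon bases with Gm10501 on the other strand. Dnajb13, a gene of sperm and cilia, was at 0.71, 0.91, 1.13 and 0.85 FPKM in controls and 0 to 0.2 with triclocarban. The small heat shock gene Hspb8, the partner of Bag3, was at 0.25, 0.6, 0.19 and 0.51 FPKM in controls and 0.87, 0.42, 2.11 and 1.3 in treated libraries, so the partners differed in direction of their means. These genes were not tested with the filter, and without it Dnajb13 was lower and Hspa1l and Hspb8 were not called.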
